A study of Mus musculus with 32 samples.

Results

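Smc1a and Stag2 are the cohesin subunit genes of the mouse X chromosome. Their rows were taken by symbol from each of the 4 deposited tables of X-linked gene expression, and these 2 genes stand among 1006 listed genes. The tables cover XEN cells, which are extraembryonic endoderm stem cells, from a cross labelled 129S1/SvImj X JF1/Ms, so that RNA from the active X (Xa) and the inactive X (Xi) is listed apart. The libraries were made with Smart-seq2, a full-length protocol for polyadenylated RNA, and the values are FPKM, fragments scaled by gene length and by the number of mapped fragments. In all, 32 libraries fall into 12 groups, and every group has 1 merged Xa column and 1 merged Xi column, 24 in total.

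In 1 table, XistpA (4 libraries), XRR_KO (2 libraries, 1 from each of 2 clones) and XRRa_KO (3 libraries) stand beside wild type (WT, 3 libraries). The labels do not spell out XistpA, XRR, XRRa, XRRb or XRRc. A second table holds XRRb_XiKO and XRRb_XaKO, and XRRc_XiKO and XRRc_XaKO, with 2 libraries each and no WT column, and the names place each knockout on the inactive or on the active X. Another table holds Rad21-degron cells given dTAG, a compound that triggers degradation of the tagged protein, or DMSO, its solvent, with 4 libraries from 2 clones in each group. The last one holds Ctcf-degron cells given dTAG or DMSO for 48 h, with 2 libraries each. No treatment time for the Rad21-degron cells is given in the sources used here. All 4 tables share the line label XEN and the strain cross. Autosomal endoderm markers are not analysed here, so the cell type label was not checked.

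Cohesin is a ring-shaped complex that holds sister chromatids together and extrudes DNA loops. Smc1a pairs with Smc3 to form the arms and ATPase heads of the ring, and Rad21 closes it. Stag2, or its autosomal relative Stag1, binds Rad21 and contacts Ctcf, the zinc finger protein at whose bound sites loop extrusion tends to stop. In mammals most genes of the inactive X are silenced by Xist RNA, and some escape. In human cells SMC1A is known as a gene that escapes X inactivation and STAG2 as a gene that is subject to it. Smc3, Rad21, Stag1 and Ctcf are autosomal and are not analysed here. The extent of the Rad21 or Ctcf depletion is thus not visible in X-linked tables.

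The stretches upstream of the starts of Smc1a and of Kdm5c are shown because only 1 listed gene, Iqsec2, separates these genes, and their Xi levels lay far apart. The sequences are those of RefSeq on build GRCm38.p6, 250 bases each, printed 5′ to 3′ on the strand of the gene with CpG dinucleotides in capitals. The RefSeq promoter table matched 1 of the 2 cohesin genes, Smc1a, at chrX:152016178-152016427 on the plus strand. Kdm5c lies on the same strand at chrX:152232977-152233226.
Smc1a: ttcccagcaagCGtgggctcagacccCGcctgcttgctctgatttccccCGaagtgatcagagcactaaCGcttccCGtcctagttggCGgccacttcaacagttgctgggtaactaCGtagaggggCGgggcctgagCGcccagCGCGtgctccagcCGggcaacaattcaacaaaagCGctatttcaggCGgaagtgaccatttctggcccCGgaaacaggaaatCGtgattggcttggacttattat
Kdm5c: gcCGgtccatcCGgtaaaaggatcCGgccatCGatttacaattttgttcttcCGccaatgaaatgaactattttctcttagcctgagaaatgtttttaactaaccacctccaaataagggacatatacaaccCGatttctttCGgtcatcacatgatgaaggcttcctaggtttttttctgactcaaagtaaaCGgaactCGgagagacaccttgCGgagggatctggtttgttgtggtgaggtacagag

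The Smc1a stretch held 16 CpG at 56.8% G and C, with 0.794 of the CpG number its base composition predicts. Fewer CpG were found in 83.8% of the 1223 windows of the X. The Kdm5c stretch held 10 CpG at 43.6% G and C, 0.842 of the predicted number, and 69.2% of X windows held fewer. The median X window held 5. Ribc1, which codes for a ciliary microtubule protein, starts 132 bases from Smc1a on the opposite strand, and 9 CpG lie between both starts. The letters AGGNGGC, the core of the Ctcf motif with N for any base, were searched on both strands and were absent from the Smc1a and Kdm5c stretches. They occur in 24.8% of X windows and in 25.0% of all 32851 windows of the same length.

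Both genes were expressed from Xa in every group, and RNA from Xi was at or near 0. In the table with WT, Smc1a had 17.1 FPKM on Xa in XistpA, 20.9 in XRR_KO and 14.8 in XRRa_KO, against 15.5 in WT. Stag2 had 10.8 FPKM on Xa in XistpA, 13.5 in XRR_KO and 13.7 in XRRa_KO, against 13.6 in WT. Smc1a was thus the higher of both genes on this per-length scale in each of these columns. XistpA and XRR_KO held its highest Xa levels in that table, and Stag2 was lowest in XistpA.

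In the XRRb and XRRc cells, Smc1a had 17.5 FPKM on Xa in XRRb_XiKO against 19.0 in XRRb_XaKO, and 17.8 FPKM in XRRc_XiKO against 19.9 in XRRc_XaKO. Stag2 had 8.70 FPKM on Xa in XRRb_XiKO against 11.5 in XRRb_XaKO, and 9.36 FPKM in XRRc_XiKO against 10.2 in XRRc_XaKO. For both genes the XiKO column was the lower one in either pair as deposited, although Smc1a in XRRb_XiKO turned to a log2 change of 0.03 at equal median Xa FPKM. In Rad21-degron cells, Smc1a had 7.62 FPKM on Xa with dTAG and 11.0 with DMSO, and Stag2 had 8.21 FPKM with dTAG and 8.30 with DMSO. In Ctcf-degron cells, Smc1a had 15.7 FPKM on Xa with dTAG and 15.8 with DMSO, whereas Stag2 had 1.49 FPKM with dTAG and 1.33 with DMSO. Stag2 was therefore slightly above Smc1a in Rad21-degron cells given dTAG, below it in those given DMSO, and far below it in both columns of the Ctcf table. No group has a value per library, so the spread between replicates is unknown and no order of levels was tested.

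**Figure D1:**
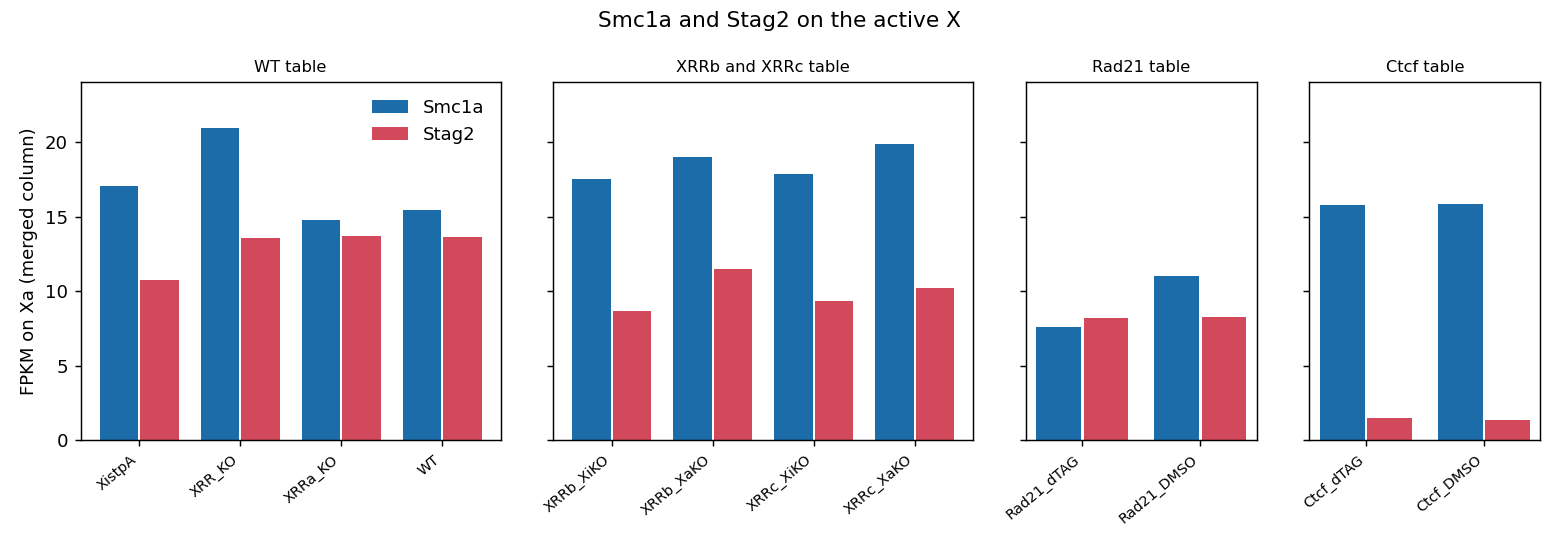
Xa level in FPKM (linear axis from 0) of Smc1a and Stag2 in the 12 groups, with 1 bar per merged column, no error bars and a panel for each of the 4 tables. Smc1a lies between 7.62 and 20.9 FPKM, and Stag2 lies between 8.21 and 13.7 FPKM except in the Ctcf table, where it is at 1.49 FPKM with dTAG and 1.33 with DMSO.

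Ranks allow the 4 tables to be set side by side, since each table was made separately. Genes were counted as expressed at a mean of 1 FPKM or more for the sum of both alleles within a table, which held for 270 genes in the table with WT, 261 in the XRRb and XRRc table, 247 in the Rad21 table and 277 in the Ctcf table. Among the 233 genes expressed in all 4 tables, Smc1a ranked between 63 and 70 by Xa level in the Ctcf table and between 67 and 96 in the others. Stag2 ranked between 210 and 220 in the Ctcf table and between 85 and 126 elsewhere. This gap of 84 places, counted from its worst rank elsewhere to its best in the Ctcf table, was not matched by any other of the 233 genes in that direction, and the comparison of ranks was chosen after the values had been seen. Thoc2, a subunit of an mRNA export complex that lies close to Stag2 with Xiap between them, had 9.27 FPKM with dTAG and 8.50 with DMSO in the Ctcf table, at the upper end of its 4.80 to 9.27 FPKM over all 12 groups. The Ctcf table lists 53 genes that the other tables do not, and whether a different gene model or processing moves with the Stag2 level was not tested.

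The ratio of the Xa levels of Smc1a and Stag2 lies within a column and does not depend on scaling between columns. It was 1.58 in XistpA, 1.55 in XRR_KO and 1.08 in XRRa_KO, against 1.14 in WT. It was 2.02 in XRRb_XiKO against 1.65 in XRRb_XaKO, and 1.91 in XRRc_XiKO against 1.95 in XRRc_XaKO. With dTAG it was 0.928 against 1.32 with DMSO in Rad21-degron cells, and 10.6 against 11.9 in Ctcf-degron cells. Rad21-degron cells given dTAG were the only group of the 12 in which Stag2 was the higher gene. XRR_KO and XistpA differed from WT in that ratio by a similar factor, in the other direction.

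The Xi columns of Stag2 held 0 in each of the 12 groups. Smc1a was listed above 0 on Xi in 5 groups and at 0 in 7. Its Xi level was 0.00490 FPKM in XistpA, 0.0105 in XRR_KO and 0 in XRRa_KO, against 0.0284 FPKM in WT. It was 0.0151 FPKM in XRRb_XiKO and 0.0208 FPKM in XRRc_XiKO, and was listed at 0 in XRRb_XaKO, XRRc_XaKO and in every degron column. The highest Xi share of Smc1a, that is Xi FPKM as a percentage of Xa plus Xi FPKM, was 0.183% in WT. The shares were 0.0287% in XistpA, 0.0500% in XRR_KO, 0.0859% in XRRb_XiKO and 0.116% in XRRc_XiKO.

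Neither gene reached an Xi share of 10% in any group, a level that 11.5% to 21.5% of expressed genes reached. That background was 20.4% in XistpA, 21.5% in XRR_KO and 15.9% in XRRa_KO, against 12.2% in WT. It was 14.2% in XRRb_XiKO and 13.4% in XRRb_XaKO, and 12.3% in XRRc_XiKO and 11.5% in XRRc_XaKO. It was 15% with dTAG and 13.4% with DMSO in Rad21-degron cells, and 13% with dTAG and 13.4% with DMSO in Ctcf-degron cells. A value at or near 0 was common. Of the 233 genes expressed in all tables, 38 (16.3%) were listed at 0 on Xi in all 12 groups, as Stag2 was, 159 were so in 7 or more, as Smc1a was, and 59 (25.3%) had a highest Xi share no greater than that of Smc1a. A listed 0 can also be a failed estimate, and the files give neither read counts nor the number of strain-specific bases per gene, so the depth behind these values is unknown and no detection limit can be set.

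**Figure D2:**
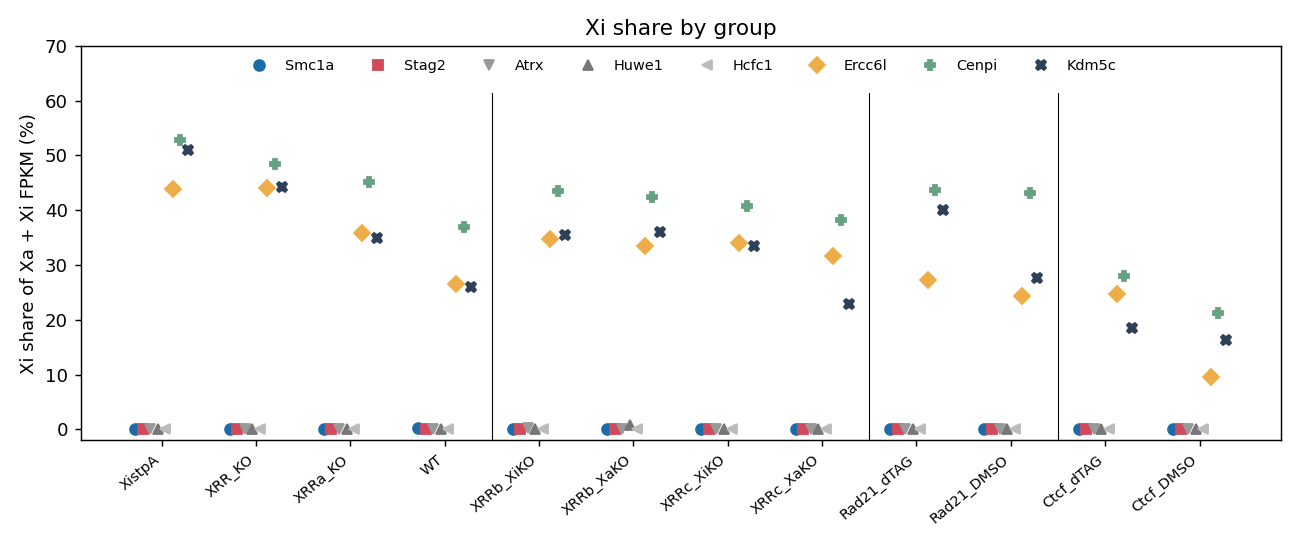
Xi share in percent of Xa plus Xi FPKM for Smc1a and Stag2 beside Atrx, Huwe1, Hcfc1, Ercc6l, Cenpi and Kdm5c in the 12 groups, 1 point per merged column, with lines between the 4 tables. Smc1a and Stag2 lie on the zero line in every group, with a maximum of 0.183% for Smc1a in WT, while Kdm5c lies between 16.3% and 51.0%.

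The table with WT asks whether either gene becomes active on Xi when Xist or XRR is altered. Changes are on the scale of log2(FPKM + 0.5), where a step of 1 or more was the size rule for a rise or fall, with no p-value because each group is 1 merged column. Xist itself, the RNA that coats the inactive X, fell on Xi to a listed 0 in XistpA and to 1.18 FPKM in XRR_KO, against 15.5 FPKM in WT (changes of -5.00 and -3.25). Smc1a changed by -0.07 on Xi in XistpA, by -0.05 in XRR_KO and by -0.08 in XRRa_KO, each from a level that was already near 0 in WT. Stag2 stayed listed at 0 on Xi throughout. The share of expressed genes that passed the size rule on Xi in either direction was 13.7% in XistpA, 17% in XRR_KO and 7.04% in XRRa_KO, and neither cohesin gene was among them.

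Kdm5c, a histone demethylase that escapes X inactivation in mouse and human, shows what a change on Xi looks like next to Smc1a. It rose on Xi to 2.76 FPKM in XistpA and 2.80 FPKM in XRR_KO, against 0.763 FPKM in WT, with changes of 1.37 and 1.39. Its Xi share was 51.0% in XistpA, 44.2% in XRR_KO and 35.0% in XRRa_KO, against 26.0% in WT. Smc1a, with Iqsec2 between it and Kdm5c, had no share above 0.183% in the same columns.

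On Xa, Smc1a changed by 0.14 in XistpA, 0.43 in XRR_KO and -0.06 in XRRa_KO relative to WT. The median over expressed genes was -0.02, -0.19 and 0.02 in these comparisons, and 24 of 270 genes had a higher change than Smc1a in XRR_KO. Stag2 changed by -0.32 in XistpA, by -0.01 in XRR_KO and by 0.01 in XRRa_KO, and the sign of the last 2 turned at equal median Xa FPKM (0.15 and -0.04). None of these passed the size rule, which 4.44% of expressed genes passed on Xa in XistpA, 4.81% in XRR_KO and 0.741% in XRRa_KO. The 3 comparisons share the WT column.

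The XRRb and XRRc pairs compare a knockout on the inactive X with the same knockout on the active X. Smc1a changed by -0.11 on Xa in XRRb_XiKO and by -0.15 in XRRc_XiKO relative to the XaKO cells, and by 0.04 and 0.06 on Xi. Stag2 changed by -0.38 on Xa in XRRb_XiKO, where 32 of 261 genes had a lower change and the median was -0.09, and by -0.12 in XRRc_XiKO, where the median was -0.05. No change of either gene passed the size rule. It was passed by 3.07% of expressed genes on Xa and 1.92% on Xi in the XRRb pair, and by 2.3% on either allele in the XRRc pair. Smc1a RNA from Xi was listed above 0 in both XiKO columns and at 0 in both XaKO columns, at levels of 0.0208 FPKM or less. Among the 261 expressed genes, 51 were higher on Xi in XRRb_XiKO than in XRRb_XaKO and 63 were lower. In the XRRc pair 55 were higher in XRRc_XiKO and 57 were lower. The WT column, in another table, held 0.0284 FPKM of Smc1a on Xi.

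A comparison of XRRb_XaKO with XRRc_XaKO, which differ in the deleted element and were added as a yardstick after the values had been seen, gave changes of -0.06 for Smc1a and 0.17 for Stag2 on Xa, with a median of 0.11. The size rule was passed by 1.92% of expressed genes on Xa and 1.53% on Xi in that comparison, and by neither cohesin gene. The Stag2 change in the XRRb pair, -0.38 as deposited and -0.25 at equal median Xa FPKM, shares the XRRb_XaKO column with this yardstick, so the values are not independent. Whether it exceeds the spread between libraries cannot be read from merged columns.

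Degradation of Rad21 asks whether the genes of 2 other cohesin subunits respond to loss of the subunit that closes the ring. Neither passed the size rule. Smc1a on Xa with dTAG was 0.693 of its level with DMSO, a change of -0.50, and 91 of 247 genes had a lower change and 155 a higher one. Stag2 with dTAG was 0.990 of its level with DMSO, a change of -0.01, with 159 genes lower and 87 higher. The median change of all expressed genes on Xa was -0.26, and relative to it Smc1a stood at -0.24 and Stag2 at 0.24, so the direction for Stag2 turns with the scaling of the columns. The rule was passed by 21.5% of expressed genes on Xa and 7.29% on Xi. The sum of both alleles changed like Xa, within 0.00256 on the log2 scale for either gene in each of the 7 comparisons. This follows from Xi levels at or near 0 and is no separate result. On Xi both genes were listed at 0 with dTAG and with DMSO. FPKM are scaled by mapped fragments, so a change in the total RNA of a sample is not visible in them. Fewer cells expressing a gene and less of its RNA in each cell cannot be told apart in such bulk samples.

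After Ctcf degradation both genes were close to their DMSO level. Smc1a on Xa with dTAG was 0.995 of its level with DMSO (change of -0.01), and Stag2 was 1.12 times its level (change of 0.12). The median change on Xa was 0.23, with 56 of 277 genes lower than Smc1a and 94 lower than Stag2. With the columns brought to equal median Xa FPKM, Smc1a changed by -0.27 and Stag2 by -0.08, so the sign for Stag2 turns with the scaling, and both stayed within the size rule. The rule was passed by 6.14% of expressed genes on Xa and by 0.722% on Xi. Both genes were again listed at 0 on Xi with dTAG and with DMSO. The low level of Stag2 in this table limits its change, because a pseudocount of 0.5 FPKM is large beside 1.49 and 1.33 FPKM. The 2 degradations have controls and tables of their own and were not tested against each other.

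**Figure D3:**
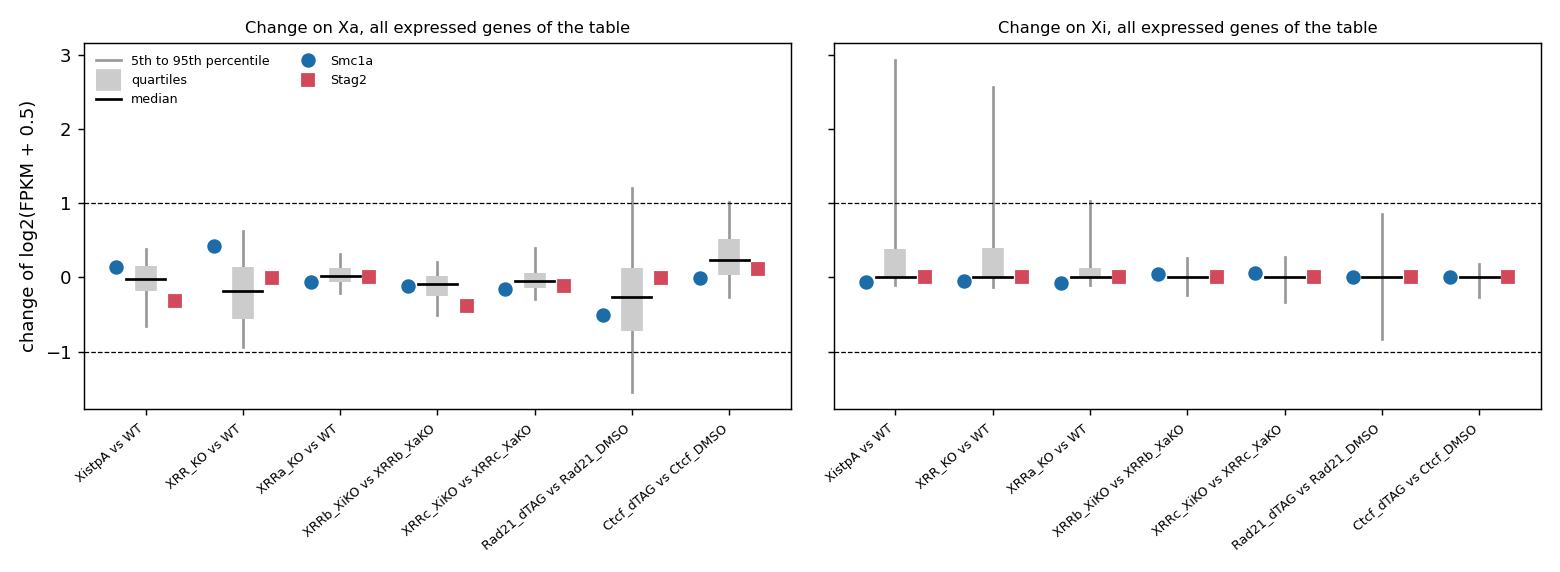
Change of log2(FPKM + 0.5) on Xa and Xi for Smc1a and Stag2 in the 7 comparisons, beside the median (black line), quartiles (box) and 5th to 95th percentile (grey line) of all expressed genes, with dashed lines at the size rule of 1. Every point of both genes lies inside the rule, and in these columns as deposited the one farthest from 0 is Smc1a on Xa after Rad21 degradation at -0.50.

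In the columns as deposited, the farthest change from 0 on Xa over the 7 comparisons was 0.50 in size for Smc1a, in the Rad21 comparison, and 0.38 for Stag2, in the XRRb pair. At equal median Xa FPKM it was instead 0.58 for Smc1a, in XRR_KO against WT, and 0.38 for Stag2, in the Rad21 comparison. Among the 233 genes expressed in all tables, the median of the same quantity, again as deposited, was 0.79, and 47 genes had a smaller one than Smc1a and 19 a smaller one than Stag2. A gene that stays within the rule is not unusual here, since 161 of these genes (69.1%) never passed it on Xa and 169 (72.5%) never passed it on Xi.

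Other X-linked genes of chromosome structure were read from a list of 9, of which 6 were expressed in 3 of the tables and 7 in the Ctcf table. Hdac8, which deacetylates SMC3 in human cells, was listed at 0 in all 24 columns, and Firre is not analysed here. The RNA 4933407K13Rik, from the Dxz4 repeat locus where Ctcf binds on the inactive X, was the one expressed only in the Ctcf table, with 1.92 FPKM on Xa with dTAG and 1.73 with DMSO, and 0 on Xi in both. In Rad21-degron cells, 2 of 6 fell on Xa and none rose, beside 21.5% of all expressed genes past the rule in either direction, so nothing is read from that count. Ercc6l, a DNA translocase that acts on anaphase bridges, fell to 1.76 FPKM on Xa with dTAG, against 5.97 with DMSO (change of -1.51), and to 0.662 FPKM on Xi, against 1.93 (change of -1.06). Hcfc1, a transcriptional coregulator of the cell cycle, fell to 2.97 FPKM on Xa with dTAG, against 7.18 with DMSO (change of -1.15). With the columns scaled to the same median on Xa, Hcfc1 on Xa and Ercc6l on Xi were within the rule, at -0.77 and -0.78, while Ercc6l on Xa stayed past it at -1.16. The list's median on Xa was -0.41, against -0.26 for all expressed genes.

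The other list members did not pass the rule in that comparison. Huwe1, a ubiquitin ligase gene, had 5.74 FPKM on Xa with dTAG and 9.07 with DMSO, a change of -0.62 that is close to that of Smc1a. Atrx, a chromatin remodeller, had 4.57 FPKM with dTAG and 5.33 with DMSO, and the centromere gene Cenpi had 3.95 FPKM with dTAG and 4.65 with DMSO. In Ctcf-degron cells 0 of 7 passed the rule on either allele, where 6.14% of all expressed genes passed it on Xa and 0.722% on Xi, with a list median of 0.05 on Xa beside 0.23 for all expressed genes. In the other 5 comparisons Xist on Xi in XistpA and XRR_KO was the only member past the rule.

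The list members other than Xist differed in their Xi share. Atrx, Hcfc1 and Huwe1 were like the cohesin genes, with no Xi share above 0.707%, the value of Huwe1 in XRRb_XaKO. Cenpi had Xi shares of 21.3% to 52.7% and Ercc6l of 9.53% to 44.0% over the 12 groups. For Cenpi the share was 52.7% in XistpA and 48.5% in XRR_KO, against 36.9% in WT, and for Ercc6l it was 43.9% in XistpA and 44.0% in XRR_KO, against 26.6% in WT. The low 4933407K13Rik was listed above 0 on Xi in XistpA, with 0.0697 FPKM and a share of 12.5%, and in XRR_KO, with 0.179 FPKM and a share of 17.9%, and at 0 in WT and the other 9 groups.

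Around Smc1a, the listed genes in the order of the RefSeq gene table are Mir98, Hsd17b10 and Ribc1 on one side and Iqsec2, Kdm5c and Tspyl2 on the other. Hsd17b10, a mitochondrial dehydrogenase gene, had 66.8 FPKM on Xa in WT and an Xi share of no more than 0.317% in any group. Ribc1, which shares the start region with Smc1a, had 0.928 FPKM on Xa in WT and 0 on Xi in every group. Tspyl2 had an Xi value of 0 in every group, and Mir98 was listed at 0 on both alleles. Tspyl2 was low on Xa too, with 1.38 FPKM in WT and 2.51 FPKM or less in any group. It did not count as expressed in the XRRb and XRRc table. Iqsec2, a guanine nucleotide exchange factor gene, was at 0.346 FPKM or less on Xa, so its only Xi value, 0.0310 FPKM in XRR_KO, gives a share of 47.6% from almost no RNA. Kdm5c was thus the single gene of these 6 with 0.5 FPKM or more on Xi, with shares of 16.3% to 51.0%.

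Around Stag2 the order is Gria3, Thoc2 and Xiap on one side and Sh2d1a, Tenm1 and Gm362 on the other. Thoc2, like Stag2, had an Xi value of 0 in every group. Xiap, an inhibitor of apoptosis, had 6.40 FPKM on Xa in WT and an Xi share of 0.515% at most, in XRRa_KO. Gria3, Sh2d1a, Tenm1 and Gm362 were listed at 0 on both alleles in every group. An Xi share could therefore be read only for Thoc2 and Xiap near Stag2, and neither had one comparable to that of Kdm5c.

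**Figure D4:**
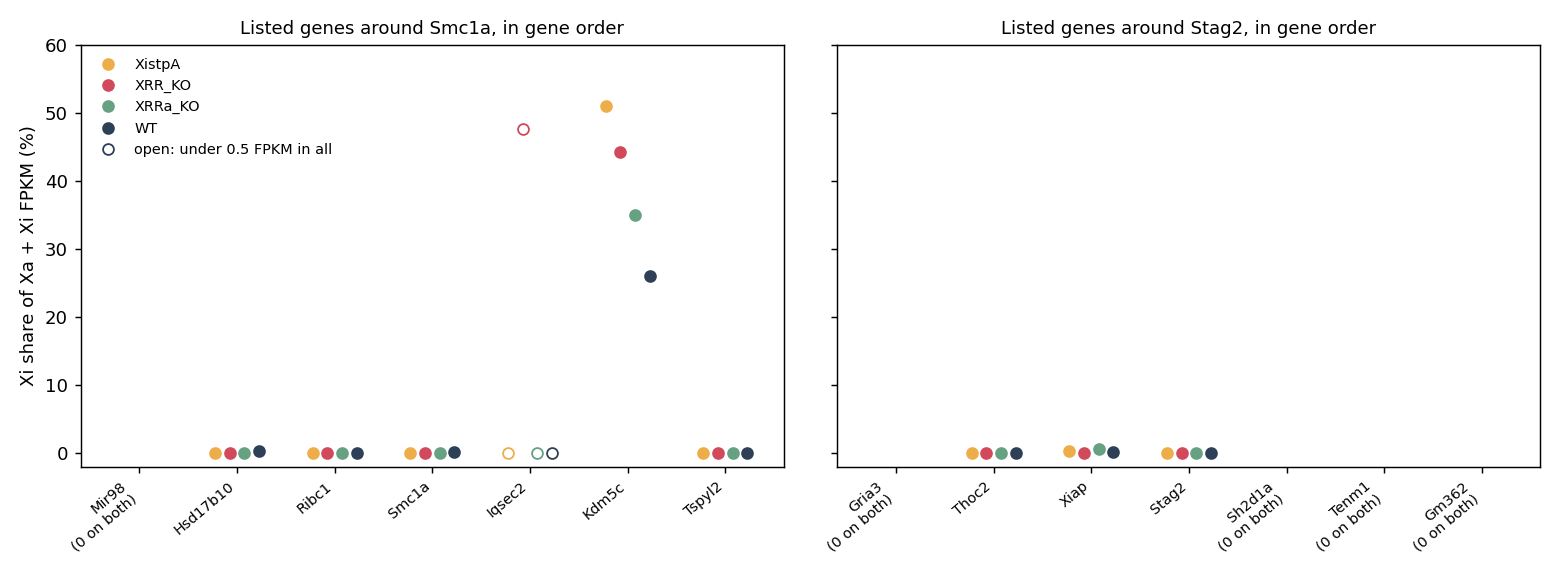
Xi share in percent of the 3 nearest listed genes on each side of Smc1a (left panel) and of Stag2 (right panel), in XistpA, XRR_KO, XRRa_KO and WT. Kdm5c stands at 26.0% to 51.0%, the other filled points lie at or near 0, open points have under 0.5 FPKM on both alleles together (Iqsec2 at 47.6% in XRR_KO is one), and genes without a point were listed at 0 on both alleles.

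The cohesin genes did not follow each other across the groups. With each table's mean removed, the Pearson correlation of log2(Xa plus Xi FPKM + 0.5) between Smc1a and Stag2 over the 12 columns was 0.11, which placed Stag2 108th among the genes ordered by likeness to Smc1a. The genes most like Smc1a were Htatsf1 (0.96), Pola1 (0.92), which codes for the catalytic subunit of DNA polymerase alpha, and Wnk3 (0.91), a kinase gene. Pola1 had 3.35 FPKM on Xa with dTAG and 7.57 with DMSO in Rad21-degron cells, and Wnk3 had 3.05 FPKM in XRR_KO against 2.07 in WT. The genes most like Stag2 were Dcaf12l1 (0.95), Flna (0.89), which codes for an actin crosslinker, and Zfp185 (0.83). Flna had 15.1 FPKM on Xa in XistpA, against 18.4 in WT. The points share their tables and libraries, and the highest correlations among 233 genes over 12 columns are a description only.

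Other annotated genes overlap both cohesin genes. In GENCODE M21 a processed pseudogene, Gm15267, overlaps Smc1a, and Gm37564, a transcript yet to be experimentally verified, overlaps Stag2. Each lies on the strand opposite to its cohesin gene. Smart-seq2 does not mark strand, so reads from any bases that these genes share with exons of the cohesin genes cannot be told apart. Only whole gene spans were compared, and overlap with exons was not checked. No transcript of another gene matched either gene at 95% identity or more over 50% or more of its length.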

How the data were processed

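Polyadenylated RNA of XEN cells was sequenced after Smart-seq2, per the labels' protocols. The authors deposited 4 tables of FPKM values on the X, with the libraries of a group merged into 1 column per allele; no read counts, depths or values per library were used here. The submitters' processing notes name the aligner HISAT2 2.2.0, the quantifier StringTie 2.1.1, the trimmer Trim Galore 0.6.4 and mouse build mm9. The sources used here do not give the method of allele assignment or any correction for reads that align better to the reference allele. Columns of the Ctcf table name only the treatment and were matched to the Ctcf-degron groups because the labels tie the other libraries to the other tables.

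Changes were computed in Python 3.11.15 (pandas 2.3.3, numpy 2.4.6) as differences of log2(FPKM + 0.5) within a table, for genes whose Xa plus Xi FPKM averaged 1 or more. This scale understates changes of low genes. With 1 value a group there is no replicate error, so no p-value was computed and a change of 1 was the size rule. The scripts were tested on simulated data. Genes named were Smc1a and Stag2, a list of 9 genes of chromosome structure, the 3 nearest listed genes on each side, Kdm5c and the 3 genes most correlated with each cohesin gene. These genes and the list were chosen with earlier results of these data known. Gene order (999 of 1006 listed genes placed) and promoter sequences came from RefSeq, and near-identical copies were searched among GENCODE M21 transcripts with minimap2 2.31. Other pseudocounts, filters and scalings were tried. A planned comparison of cohesin protein sequences was not run.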

Additional observations from a re-analysis of the deposited data

How the results depend on the processing

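No paired analysis was possible because the deposited columns merge the libraries of a group and carry no replicate numbers; for the same reason no library could be left out. The 28 changes of Smc1a and Stag2 were recomputed under 4 other settings (pseudocounts, equal median Xa FPKM, centring on the median Xa change). None of the 112 values reached the size rule of 1, and they ran from -0.52 to 0.61. On Xi, where neither gene exceeded 0.0284 FPKM, the rule was out of reach in these settings, so only the Xa values bear on it. Scaling mattered most after Rad21 degradation. There the Xa change of Smc1a, -0.50 as deposited, was -0.11 at equal median Xa FPKM and -0.24 when centred, and that of Stag2, -0.01 as deposited, was 0.38 at equal median and 0.24 when centred. Centring gave 0.26 on Xi for both genes although all their Xi values were 0, since it only subtracts the Xa median. After Ctcf degradation Smc1a on Xa was -0.27 at equal median, against -0.01 as deposited. The Xi change of Smc1a in XRRa_KO was -0.36 with a pseudocount of 0.1, against -0.08 with 0.5. The shifts with scaling follow from its construction, since it moves all genes of a column together. The falls of Ercc6l on Xi and Hcfc1 on Xa after Rad21 degradation ended under both scalings (-0.78 and -0.80, and -0.77 and -0.89), and that of Ercc6l on Xi also with a pseudocount of 1 (-0.82). The changes of Xist and Kdm5c stayed past the rule in the 4 settings. Of 28 counts of expressed genes past the rule under another filter, 9 moved by more than 1.5 times, all on Xa. With a filter of 5 FPKM the counts were 2 in XistpA (12 as reported), 8 in XRR_KO (13), 0 in XRRa_KO (2), 2 in the XRRb pair (8), 3 in the XRRc pair (6), 34 with Rad21 degradation (53) and 6 with Ctcf degradation (17), and with no filter 6 in XRRa_KO and 12 in the XRRc pair. A higher filter leaves fewer genes to count, and shares under the other filters were not computed. These counts therefore do not show whether the shares moved. Unknown depth limits every Xi value near 0.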
